A study of Homo sapiens with 30 samples.

Results

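The androgen response described here is that of NLSKD cells, LNCaP prostate cancer cells with mTOR knocked down and a kinase-dead, nucleus-directed form of mTOR put in its place. The members were taken from the sample labels: 3 libraries from cells given R1881, a synthetic androgen, and 3 libraries from cells given the ethanol vehicle, 6 of the 30 libraries in the series. All cells of the series carry an shRNA against mTOR (shmTOR) and, in an inducible system, a rescue construct or the empty vector. All spent 48 h without androgen, in 2% charcoal-stripped serum, before treatment. R1881 was then given at 10 nM, or ethanol at 0.1%, for 24 h. The rescue in NLSKD is mTOR with a nuclear localization signal and the D2357E change, which removes kinase activity. The other lines, used only for comparison, carry the nuclear form with its kinase intact (NLS), a form sent out of the nucleus by an export signal (NES), wild-type mTOR (WT) or the empty vector alone (EV), each with 3 libraries per treatment. The labels call the samples triplicates and do not say whether they were separate cultures, so the p-values reflect sample-to-sample spread that may be technical. Whether a line is 1 clone or a pool of infected cells is not given in the sources used here.

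Androgens act through a steroid hormone receptor that moves to the nucleus when bound and switches on secretory, lipid and growth genes of the luminal prostate cell, while it lowers another set of genes. LNCaP is an established androgen-dependent line from a lymph node metastasis. mTOR is a kinase that senses nutrients and growth factors through the complexes mTORC1 and mTORC2, mostly in the cytoplasm, and it has also been found in the nucleus on chromatin. NLSKD cells keep the nuclear protein but not its activity, so their response can be set against that of NLS cells for the part played by kinase activity.

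The 6 libraries held between 21.7 and 25.1 M counts, and 18296 of the 58735 genes had enough counts to be tested, 13489 of them protein-coding. Mitochondrially encoded genes took a share of the counts that was 5.17%, 11.7% and 8.47% in vehicle libraries 1, 2 and 3, and 4.31%, 8.70% and 8.54% in R1881 libraries 1, 2 and 3. Libraries numbered 2 had the highest share in each group, and counts of calls without both of them are given beside the counts below. Levels are given as CPM, the counts of a gene scaled to a common library total with TMM factors. Changes are log2 fold changes of R1881 over vehicle. Their standard error (SE) is the size of the change divided by the square root of edgeR's F statistic. It is only approximate for genes with few counts in a group. A gene is called higher or lower when edgeR's quasi-likelihood test, fitted to all 30 libraries, gave a Benjamini-Hochberg adjusted p under 0.05.

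MTOR (ENSG00000198793, hg38 chromosome 1, 11106535 to 11262507) stood at 1482, 647 and 918 CPM under vehicle and at 1456, 727 and 1064 CPM under R1881. The groups overlapped, and the difference was 0.09 ± 0.32 (SE, adjusted p = 1.0). Reads from the construct and from the cells' own gene are counted together, so these values do not show the D2357E change. The means in EV, which has no rescue, were 25.7 CPM under vehicle and 66 CPM under R1881, a rise of 1.36 ± 0.33 (edgeR adjusted p = 0.00786). The difference between the NLSKD and EV responses of MTOR did not pass over all genes. SLITRK5, a neuronal adhesion protein with a mean of 0.0539 CPM in EV cells under vehicle, stood at 12.3, 13.0 and 13.6 CPM under vehicle and at 9.60, 5.47 and 11.0 CPM under R1881 (adjusted p = 0.717).

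R1881 changed 746 genes in NLSKD cells, 4.08% of those tested. Of these, 454 were higher (2.48% of genes tested) and 292 were lower (1.60%). The 3 R1881 libraries lay wholly above or below the 3 vehicle libraries for 453 of the 454 higher and 290 of the 292 lower genes. Over all tested genes the groups did not overlap for 2880 (15.7%). The changes upward were larger: 335 of the higher genes moved at least 2-fold, 165 at least 4-fold and 66 at least 16-fold, with a median log2 change of 1.46. Among the lower genes 213 moved at least 2-fold, 79 at least 4-fold and 17 at least 16-fold, with a median of -1.35. Protein-coding genes made up 383 of the higher and 240 of the lower genes. When the replicate number was kept as a block, 695 genes were higher and 494 lower, and 444 and 278 of the genes called without the block were among them. Without both libraries numbered 2, 321 genes were higher and 152 lower.

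**Figure D1:**
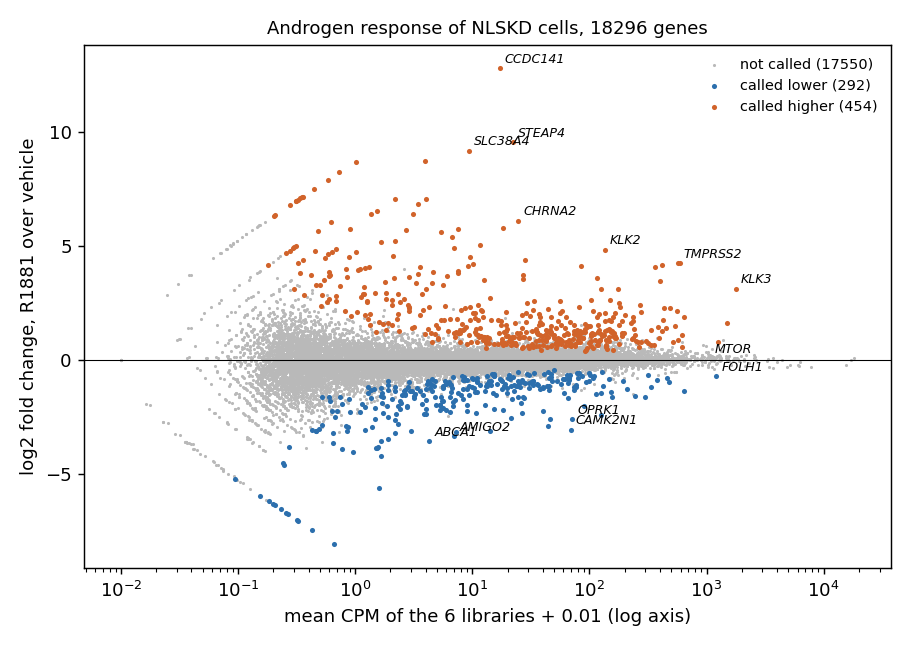
Log2 fold change of R1881 over vehicle in NLSKD cells (vertical axis) against the mean CPM of the 6 libraries plus 0.01 (log axis), 1 point per gene for 18296 genes. The 454 genes called higher are orange and the 292 called lower are blue, and the higher genes reach farther from 0.

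The strongest rises were in genes that were silent or nearly so without androgen. CCDC141, a coiled-coil protein gene (chromosome 2, 178829757 to 179050086), had no count in any of the 3 vehicle libraries and reached 48.1, 19.1 and 35.3 CPM under R1881. Set against a floor of 3 counts over the vehicle group, its lowest R1881 library was at least 469-fold higher. STEAP4, a metalloreductase that reduces iron and copper, went from 0.0777, 0.0464 and 0.0378 CPM to 57.3, 31.7 and 43.9 CPM (9.55 ± 0.69, edgeR adjusted p = 1.15e-09). SLC38A4, an amino acid transporter, had 2 counts under vehicle and 1243 under R1881, a ratio of 688 after scaling to library size (exact 95% counting interval 190 to 5687). SLC2A3, the glucose transporter GLUT3, had 1 count under vehicle and 537 under R1881, a ratio of 594 (interval 106 to 23521). These intervals cover counting error only. Both transporters were present in every R1881 library, at 13.8 to 23.2 CPM for SLC38A4 and 3.98 to 11.6 CPM for SLC2A3.

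Further genes of this kind were ORM2, an acute-phase plasma protein (7.06 ± 0.57), CHRNA2, a nicotinic receptor subunit (6.11 ± 0.35), AKAP12, a kinase anchoring protein (5.77 ± 0.77), and PGC, the precursor of the protease gastricsin (5.71 ± 0.68). F5, coagulation factor V (5.43 ± 0.58), SNAI2, a transcription repressor (5.04 ± 0.36), and HPGD, which inactivates prostaglandins (4.92 ± 0.62), followed. CHRNA2 stood at 0.583, 0.557 and 0.945 CPM under vehicle and at 42.0, 57.9 and 46.6 CPM under R1881. AKAP12 varied most between R1881 libraries of these genes, at 25.7, 4.13 and 14.6 CPM. All were above its vehicle libraries (0 to 0.389 CPM), which was a condition of its being named. ORM2 has a near-identical neighbour, ORM1, and how reads that fit both were counted is not given in the sources used here, so the split between them is uncertain.

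The lowest adjusted p-values belonged to textbook androgen targets with high levels and a small spread. TMPRSS2, the membrane serine protease (chromosome 21, 41464551 to 41531116), went from 67.7, 57.4 and 46.2 CPM to 1227, 1063 and 974 CPM. Its change of 4.25 ± 0.22 had an adjusted p of 7.45e-13 in edgeR's test, and every R1881 library was far above every vehicle library. SLC45A3, the prostein transporter, went from 43.6, 35.9 and 40.4 CPM to 753, 724 and 594 CPM (4.11 ± 0.20). PMEPA1, an inhibitor of TGF-beta signalling, went from 37.97, 35.8 and 32.4 CPM to 356, 318 and 266 CPM (3.15 ± 0.14). Neither gene's groups overlapped. FKBP5, an HSP90 co-chaperone of steroid receptors (chromosome 6, 35573585 to 35728583), went from 39.6, 43.3 and 47.9 CPM to 970, 622 and 759 CPM (4.17 ± 0.26). C1orf116, named SARG for its regulation by androgen, rose by 2.13 ± 0.14. IGF1R, the receptor of insulin-like growth factors, went from 25.9, 23.6 and 31.4 CPM to 134, 119 and 153 CPM (2.33 ± 0.18), again without overlap.

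**Figure D2:**
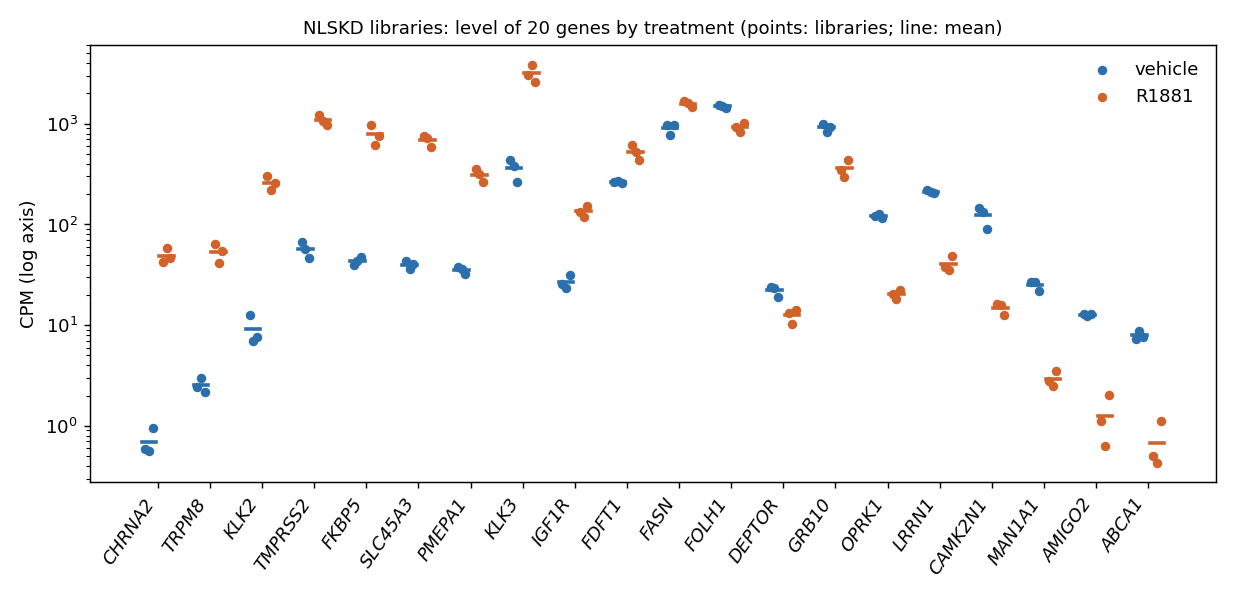
CPM (log axis) of 20 genes in each of the 3 vehicle and 3 R1881 libraries of NLSKD cells. Points are libraries and short lines are group means; TMPRSS2 stands at 46.2 to 67.7 CPM under vehicle and at 974 to 1227 CPM under R1881.

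The kallikreins are secreted proteases of the prostate, and KLK3 encodes prostate-specific antigen. KLK3 (ENSG00000142515, chromosome 19, 50854915 to 50860764) went from 433, 382 and 267 CPM to 3047, 3878 and 2610 CPM (3.14 ± 0.34, edgeR adjusted p = 3.50e-07). KLK2 (chromosome 19, 50861568 to 50880567) went from 12.7, 6.92 and 7.59 CPM to 303, 222 and 255 CPM (4.84 ± 0.28, adjusted p = 5.04e-12). Neither gene's groups overlapped. KLK4, which was named after its values were seen, rose by 2.05 ± 0.41, and KLK15, also named after its values were seen, had a difference of 1.21 ± 0.36 that did not pass (adjusted p = 0.0537; 0.00190 with the replicate block). KLK2 and KLK3 are close in sequence, so some of their reads could fit both.

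The androgen response element is a palindrome of a pair of 6-base half-sites with 3 bases between them, AGAACA followed by its reverse complement TGTTCT, and the promoters of KLK2 and KLK3 are textbook cases. The 250 bases before the gene start of both are shown because these genes carry the best known promoter sites and rose here. They are from RefSeq (GRCh38.p14), 5′ to 3′ on the plus strand, at chr19:50854665-50854914 for KLK3 and chr19:50873189-50873438 for KLK2. Capitals mark the best match to the palindrome on either strand.
KLK3: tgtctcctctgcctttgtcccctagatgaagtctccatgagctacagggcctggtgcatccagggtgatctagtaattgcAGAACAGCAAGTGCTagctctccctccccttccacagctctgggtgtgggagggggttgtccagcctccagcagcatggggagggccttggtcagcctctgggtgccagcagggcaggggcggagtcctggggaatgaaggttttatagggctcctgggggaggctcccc
KLK2: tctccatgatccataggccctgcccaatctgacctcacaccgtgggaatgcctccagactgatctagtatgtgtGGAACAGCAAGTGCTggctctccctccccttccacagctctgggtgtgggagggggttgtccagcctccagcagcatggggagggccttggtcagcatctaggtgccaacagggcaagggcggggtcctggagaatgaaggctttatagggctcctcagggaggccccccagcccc
The KLK3 match lies at bases -170 to -156, counted back from the base before the start, and has 2 mismatches outside the spacer. The KLK2 match lies at -176 to -162 and has 3. The RefSeq start of KLK2 lies inside the gene model that was counted. Of the other genes singled out for description, FKBP5 (minus strand, bases -219 to -205 of chr6:35728584-35728833) and TRPM8 (plus strand, bases -194 to -180 of chr2:233917123-233917372), both higher with R1881, also had a match with 3 mismatches, and so did PIK3IP1, which was lower and was named after its values were seen.
FKBP5: AGAAAAGCAGGGTCT
TRPM8: AAAATACCATGTTCA
TRPM8, a cold-sensing calcium channel, went from 2.41, 2.97 and 2.19 CPM to 64.6, 41.5 and 54.9 CPM (4.41 ± 0.41).

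The share of promoters that hold such a match was counted without a test. RefSeq promoters were matched by symbol to 10662 of 13485 tested protein-coding genes. A match to AGAACA, any 3 bases and TGTTCT, with up to 3 mismatches outside the spacer and on either strand, stood in 5.50% of the 291 matched promoters of higher genes, 7.34% of the 177 of lower genes and 4.93% of all matched promoters of tested genes. The half-site AGAACA alone, which overlaps the palindrome, stood in 7.22%, 10.7% and 7.46% on either strand. Over all 27305 promoters in the table, 9.34% had the palindrome match and 12.4% the half-site. These are descriptions of the window next to the start and leave out distant enhancers.

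A list of 67 androgen-induced genes was tested. It was chosen with earlier results of these data known, so its counts only describe the response. Of these genes, 58 were higher (86.6%, beside 2.48% of all genes tested) and 0 were lower. The median log2 change was 2.13, beside 0.01 over all genes tested. With the replicate block 61 were higher, and without both libraries numbered 2 there were 54. Besides the genes above, CENPN, a centromere protein, went from 22.0, 27.95 and 29.02 CPM to 263, 173 and 244 CPM (3.11 ± 0.26). NCAPD3, a condensin subunit, went from 62.5, 56.2 and 76.6 CPM to 992, 531 and 663 CPM (3.48 ± 0.32). NDRG1, a stress and differentiation gene, went from 85.4, 41.0 and 52.9 CPM to 439, 194 and 274 CPM (2.34 ± 0.33). In all of these the lowest R1881 library was above the highest vehicle library. The members nearest to no change were STEAP1 (0.01), STEAP2 (0.06) and MED28 (-0.12), and TSC22D3 stood at -0.46 (adjusted p = 0.472). For the lists below, the shares over all genes tested were 2.48% higher and 1.60% lower, and 9507 of 18296 genes had a positive change.

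Of 25 tested genes listed as androgen-repressed, 11 were lower (44%) and 4 were higher (16%), with a median log2 change of -1.18. This list too was chosen with earlier results of these data known. CAMK2N1, an inhibitor of the kinase CaMKII, went from 145, 134 and 90.2 CPM to 16.1, 16.0 and 12.5 CPM (-3.05 ± 0.26, edgeR adjusted p = 5.80e-09). OPRK1, the kappa opioid receptor, went from 120, 127 and 116.3 CPM to 20.3, 18.1 and 22.6 CPM (-2.57 ± 0.32). LRRN1, a leucine-rich repeat membrane protein, went from 219, 211 and 207 CPM to 38.1, 35.4 and 48.9 CPM (-2.38 ± 0.29). None of these groups overlapped. AMIGO2, a cell adhesion protein, fell by 3.33 ± 0.36, MAN1A1, a Golgi mannosidase, by 3.11 ± 0.50, and SI, sucrase-isomaltase, by 3.13 ± 0.63. The 4 listed genes that rose were ST6GALNAC1, a sialyltransferase (3.73 ± 0.28), UGT2B28, a glucuronosyltransferase (4.15 ± 0.65), GRIN3A, a glutamate receptor subunit (2.33 ± 0.31), and HES6, a transcription factor (1.15 ± 0.33). GRIN3A and HES6 were named after their values were seen. HES6 lost its call without any 1 of the 6 libraries (adjusted p up to 0.238).

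Outside that list, further genes covered by the naming rule fell. ABCA1, which exports cholesterol from cells (chromosome 9, 104781002 to 104928237), went from 7.31, 8.82 and 7.63 CPM to 0.497, 0.432 and 1.11 CPM. Its fall of 3.54 ± 0.62 was the largest among the protein-coding genes that the naming rule covers, with an edgeR adjusted p of 0.000441. ABCG1, a related cholesterol exporter named after its values were seen, went from 13.8, 11.4 and 12.7 CPM to 5.71, 6.62 and 3.52 CPM (-1.26 ± 0.23). Neither gene's groups overlapped, which for ABCA1 was a condition of being named. PKIB, an inhibitor of protein kinase A, went from 75.1, 100 and 61.8 CPM to 13.6, 14.3 and 11.9 CPM (-2.58 ± 0.23). SPTLC3, a subunit of the enzyme that starts sphingolipid synthesis, went from 69.7, 63.1 and 66.8 CPM to 13.8, 11.7 and 16.8 CPM (-2.24 ± 0.28). ZBTB43, a zinc finger protein, went from 104, 98.3 and 94.0 CPM to 27.6, 32.6 and 34.6 CPM (-1.65 ± 0.20). In each of these the R1881 libraries lay together, well below all vehicle libraries.

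Other falls were those of FAM198B (-2.88 ± 0.42), CBLN2, a synapse organizer (-2.51 ± 0.28), CDH26, a cadherin (-2.30 ± 0.35), AMOTL1, an angiomotin-like junction protein (-2.34 ± 0.34), MID1, a ubiquitin ligase (-2.34 ± 0.38), and IL1RN, the interleukin 1 receptor antagonist (-2.16 ± 0.22). PCED1B fell by 3.08 ± 0.55; its start overlaps AMIGO2 on the opposite strand of chromosome 12, and strand use in the counting is not given in the sources used here. TLL1, a metalloprotease, varied widely under vehicle (70.9, 35.8 and 27.0 CPM) and lost its call without R1881 library 2 or 3 or vehicle library 1 (adjusted p up to 0.148).

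Of 1212 long intergenic RNAs tested 19 were higher and 18 lower, or 1.57% and 1.49%, beside 2.48% and 1.60% of all genes tested. AL512624.2 went from 0, 0.0464 and 0.113 CPM to 5.22, 4.85 and 10.5 CPM (6.87 ± 0.70). A pair of genes that share the symbol LINC01297, on chromosomes 14 and 22, rose by 6.41 ± 0.66 and 4.53 ± 0.42, and as copies of each other they may share reads. COLCA1 went from 148, 157 and 123 CPM to 32.9, 29.1 and 45.6 CPM (-1.99 ± 0.27). C5orf66 fell by 1.95 ± 0.30 and AC096588.1 by 1.94 ± 0.35. AL512624.2, COLCA1 and C5orf66 belong to the antisense class. Of 1402 antisense genes tested 19 were higher and 15 lower, or 1.36% and 1.07%. These and other overlapping genes cannot be told from their partners without strand.

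Among 24 tested hormone receptors and lineage factors, 7 were higher and 2 lower, with a median log2 change of -0.03. KLF5, an epithelial Kruppel-like factor, went from 3.07, 3.99 and 4.01 CPM to 24.2, 19.5 and 30.4 CPM (2.74 ± 0.35). GRHL2, an epithelial factor, went from 97.5, 78.6 and 92.6 CPM to 244, 188 and 213 CPM (1.26 ± 0.16). SPDEF, a secretory-lineage ETS factor, rose by 1.92 ± 0.33 and ZBTB16, also called PLZF, by 2.13 ± 0.38. CREB3L4, a membrane-bound factor of secretory cells, rose by 1.23 ± 0.27, and HES6 was also among the 7. ELF3, an epithelial ETS factor, went from 23.9, 14.9 and 16.4 CPM to 10.0, 8.93 and 6.20 CPM (-1.14 ± 0.21). PGR, the progesterone receptor, was near the detection limit, with 61 counts under vehicle and 6 under R1881. It lost its call without 4 of the 6 libraries taken 1 at a time (adjusted p up to 0.184). ELF3 and PGR were named after their values were seen. FOXA1, a pioneer factor that opens chromatin for the receptor, stood at -0.01, HOXB13 at -0.39 and GATA2 at -0.82, and none of these passed (adjusted p of 1.0, 0.417 and 0.109).

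Of 31 coregulators and chaperones of steroid receptors, FKBP5 rose and TLE3 and TLE1, Groucho-family corepressors, fell. TLE3 went from 225, 151 and 189 CPM to 115, 99.8 and 107 CPM (-0.81 ± 0.17), without overlap. TLE1 fell by 0.77 ± 0.21, and its call was lost without 5 of the 6 libraries taken 1 at a time (adjusted p up to 0.175). With the replicate block 2 members of this list were higher and 3 lower. The median over the list was 0.04. Without the block 3.23% of the list was higher and 6.45% lower, beside 2.48% and 1.60% over all genes tested.

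Glucuronosyltransferases of the UGT2B family attach glucuronic acid to androgens and so inactivate them. UGT2B28 went from 0.933, 0.789 and 1.21 CPM to 26.0, 10.3 and 16.2 CPM (adjusted p = 0.000119 in edgeR's test), with no overlap. UGT2B17 went from 562, 714 and 605 CPM to 318, 280 and 384 CPM, also without overlap, a fall of 0.94 ± 0.26 (adjusted p = 0.0363). Its call was lost without any 1 of 5 of the libraries, all but R1881 library 3 (adjusted p up to 0.174). UGT2B15, named after its values were seen, went from 318, 347 and 371 CPM to 143, 77.4 and 149 CPM, and its difference of -1.49 ± 0.47 did not pass without the replicate block (adjusted p = 0.0788) and passed with it (0.000309). UGT2B4 (0.06), UGT2B7 (-0.99), UGT2B10 (-1.10) and UGT2B11 (1.70) did not pass either (adjusted p from 0.210 to 1.0). These genes are close copies, and the division of reads between them is uncertain. Over the 22 tested genes of androgen and steroid metabolism 3 were higher and 1 lower (5 and 2 with the block), with a median of 0.05. The others that rose were HSD17B4, a peroxisomal dehydrogenase (0.69 ± 0.15), and CYP11A1, the cholesterol side-chain cleavage enzyme. HSD17B4 lost its call without R1881 library 1 (adjusted p = 0.0607). CYP11A1 had 2 counts under vehicle and 40 under R1881, a ratio of 22.1 (exact 95% counting interval 5.74 to 189), and it did not pass with the block (adjusted p = 0.0745). It also lost its call without any 1 of 4 of the libraries, R1881 1 and 2 and vehicle 1 and 2 (adjusted p up to 0.141).

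Genes of cholesterol synthesis lay mostly above their vehicle level. Of 24 tested genes of cholesterol synthesis 23 had a positive log2 change and the median was 0.68, but 3 were called. With the replicate block 12 were called higher, and 10 when the 6 NLSKD libraries were fitted alone. FDFT1, squalene synthase, went from 264, 272 and 258 CPM to 609, 522 and 441 CPM (0.99 ± 0.19, edgeR adjusted p = 0.00160). Its groups were far apart. ACAT2, which makes acetoacetyl-CoA, rose by 0.80 ± 0.18 and lost its call without R1881 library 2 or vehicle library 1 (adjusted p up to 0.0848). INSIG1, IDI1 and SQLE, named after their values were seen, had differences of 0.98, 1.05 and 0.78 with adjusted p-values of 0.0574, 0.0655 and 0.0726, and all 3 passed with the block (0.00106, 0.00413 and 0.000648).

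Of 28 genes of fatty acid and phospholipid synthesis 6 were higher and 0 lower, with a median of 0.14. A positive log2 change was seen in 16 of the 28, near the share over all genes tested (9507 of 18296). ELOVL7, a fatty acid elongase, went from 23.5, 31.1 and 32.0 CPM to 171, 138 and 225 CPM (2.62 ± 0.33). MBOAT2, a lysophospholipid acyltransferase, went from 76.5, 95.9 and 85.4 CPM to 499, 346 and 531 CPM (2.42 ± 0.28). ACSL3, which activates long-chain fatty acids, went from 159, 161 and 165 CPM to 1031, 518 and 868 CPM (2.32 ± 0.37). Its vehicle libraries lay close together and its R1881 libraries were spread but all higher. ELOVL5 rose by 1.29 ± 0.24. FASN, fatty acid synthase, rose by 0.80 ± 0.20 and ACACA, acetyl-CoA carboxylase, by 0.67 ± 0.18. FASN and ACACA lost their calls without 3 and 4 of the 6 libraries taken 1 at a time (adjusted p up to 0.104 and 0.184). ACACA was named after its values were seen.

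Polyamines are products of prostate secretion. Of 18 polyamine genes 3 were higher. SMS, spermine synthase, went from 129, 134 and 141 CPM to 418, 309 and 321 CPM (1.37 ± 0.17). SAT1, which acetylates polyamines for export, went from 48.2, 55.4 and 50.6 CPM to 130, 159 and 105 CPM (1.35 ± 0.27). ARG2, an arginase, rose by 0.88 ± 0.20 and lost its call without vehicle library 1 (adjusted p = 0.0620). ODC1, the entry enzyme of the pathway, named after its values were seen, had a difference of 0.69 ± 0.21 that passed with the block (adjusted p = 0.00661) and not without it (0.0645). Of 29 genes of glycolysis and glucose uptake 5 were higher and 0 lower. UAP1, which makes UDP-N-acetylglucosamine, went from 175, 216 and 182 CPM to 688, 634 and 630 CPM (1.77 ± 0.15). SORD, sorbitol dehydrogenase, rose by 1.49 ± 0.21 and SLC2A12, a further glucose transporter, by 1.65 ± 0.30. HK2, hexokinase, rose by 0.71 ± 0.15 and lost its call without R1881 library 3 or vehicle library 1 (adjusted p up to 0.0666). SLC2A3, given above, is the fifth.

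Secretory pathway and endoplasmic reticulum genes lay slightly above their vehicle level, with few calls. Of ER and Golgi genes 3.1% were higher and of unfolded protein response genes 4%, beside 2.48% over all genes tested. Of 32 genes of the ER and Golgi 30 had a positive log2 change, the median was 0.32, and CREB3L4 alone was called; with the replicate block 6 were called higher. CREB3L4 lost its call without both libraries numbered 2 (adjusted p = 0.155). Of 25 unfolded protein response genes 21 were positive with a median of 0.34, and MANF, a secreted ER stress protein, alone was called (0.72 ± 0.21). It lost its call without any 1 of the 6 libraries (adjusted p up to 0.241), and with the block 3 members were higher. HSPA5, the main ER chaperone, stood at 0.33 (adjusted p = 0.578).

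**Figure D3:**
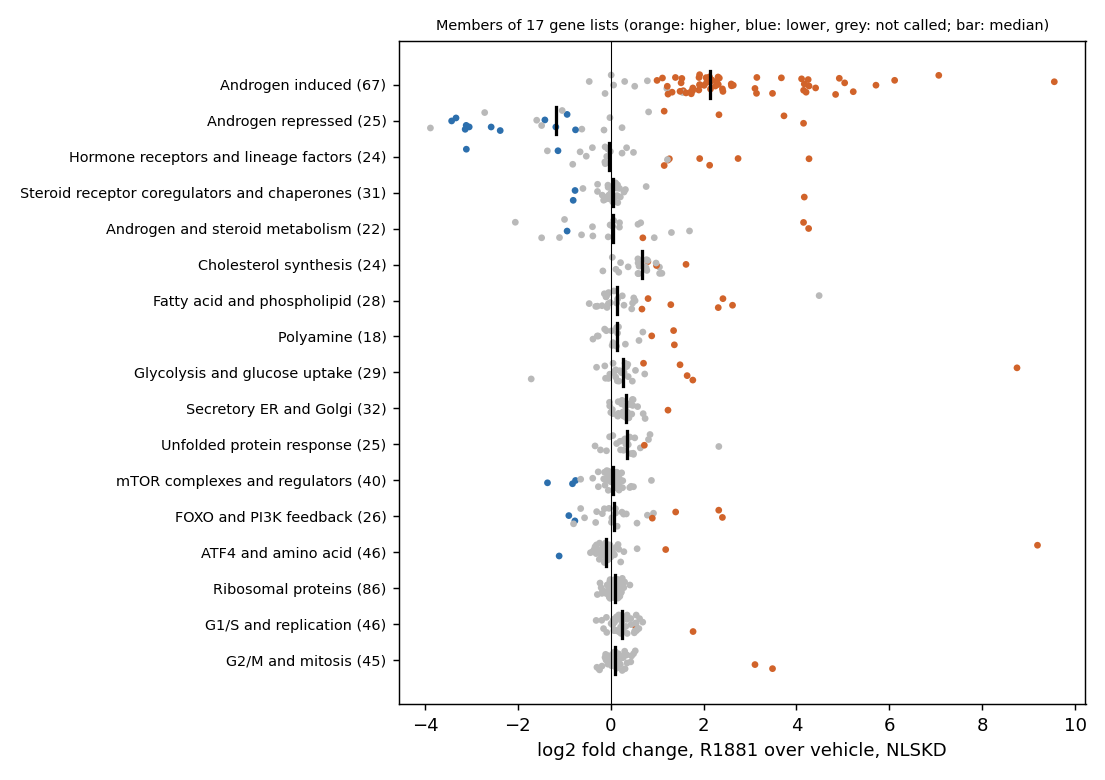
Log2 fold change of R1881 over vehicle in NLSKD cells for each tested member of 17 gene lists (number of members in brackets). Points are genes, orange if called higher, blue if called lower and grey if not called, and bars are medians; the androgen-induced list has a median of 2.13 and the ribosomal protein genes lie close to 0.08.

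For the mTOR pathway itself, 40 genes of its complexes and regulators were tested, and 3 were lower and 0 higher (median 0.05). GRB10, an adaptor that restrains insulin receptor signalling and is a substrate of mTORC1, went from 996, 837 and 940 CPM to 344, 297 and 439 CPM (-1.36 ± 0.23, edgeR adjusted p = 0.000246). DEPTOR, a subunit that inhibits mTOR, went from 23.9, 23.6 and 19.1 CPM to 13.2, 10.3 and 14.2 CPM (-0.82 ± 0.16). Neither gene's groups overlapped. SESN1, a sestrin that restrains mTORC1 when leucine is low, fell by 0.76 ± 0.20. Its call was lost without R1881 library 1 or 2 or vehicle library 2 (adjusted p up to 0.166), and without both libraries numbered 2 DEPTOR was not called (adjusted p = 0.0629). RPTOR (-0.15), RICTOR (0.05), MLST8 (-0.09), RHEB (0.12), TSC1 (-0.08) and TSC2 (0.19), the core subunits and the switch upstream, did not pass.

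In the PI3K and FOXO feedback list, 4 of 26 genes were higher and 2 lower. Besides IGF1R these were INPP4B, a lipid phosphatase, which went from 2.57, 4.74 and 3.40 CPM to 18.7, 16.0 and 21.9 CPM (2.41 ± 0.35), and IRS2, an insulin receptor substrate, which rose by 1.40 ± 0.28. BTG1, an antiproliferative gene, rose by 0.90 ± 0.20 and lost its call without vehicle library 1 or 3 (adjusted p up to 0.0955). PIK3R3, a regulatory subunit of PI3K, went from 137, 135 and 115.8 CPM to 70.8, 70.4 and 66.9 CPM (-0.90 ± 0.17), with the R1881 libraries close together below all vehicle libraries. PIK3IP1, an inhibitor of PI3K named after its values were seen, fell by 0.77 ± 0.21 and lost its call without 5 of the 6 libraries taken 1 at a time (adjusted p up to 0.213).

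Among 46 genes of the ATF4 amino acid response, a program that mTORC1 can raise, 2 were higher and 1 lower, and 12 had a positive log2 change (median -0.10). The shares called were 4.35% higher and 2.17% lower, beside 2.48% and 1.60% over all genes tested. The pair that rose were the amino acid transporters SLC38A4 and SLC43A1, and SLC43A1 went from 95.3, 108 and 91.4 CPM to 206, 271 and 194 CPM (1.18 ± 0.18). SLC7A5, the large neutral amino acid transporter LAT1, went from 34.9, 31.9 and 32.5 CPM to 10.5, 19.6 and 15.9 CPM (-1.11 ± 0.28), without overlap. It lost its call without R1881 library 1 or 3 or vehicle library 1 (adjusted p up to 0.136). ATF4 itself stood at -0.17, ASNS at -0.25 and PSAT1 at -0.31, and none passed. Of 86 ribosomal protein genes 0 were called (median 0.08, 71 with a positive change). Of 13 mitochondrially encoded genes 0 were called (median -0.24, 0 with a positive change).

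Proliferation genes showed few calls, 4.35% higher for G1/S and 4.44% for G2/M beside 2.48% over all genes tested. A positive log2 change was seen in 41 of 46 G1/S and 35 of 45 G2/M genes, beside 9507 of 18296 over all genes tested. Of 46 genes of G1/S and replication, CDK6 (1.77 ± 0.50) and CDK2 (0.54 ± 0.15) were higher. Each lost its call without 5 of the 6 libraries taken 1 at a time (adjusted p up to 0.163 and 0.322), and with the replicate block 5 members were higher. Of 45 G2/M genes CENPN and NCAPD3 were higher, both of which are also on the androgen-induced list. The summed level of the G2/M list was 973 to 1724 CPM under vehicle and 1817 to 2349 CPM under R1881, and its median log2 change was 0.09. Without CENPN and NCAPD3 the remaining 43 genes summed to 889 to 1618 CPM under vehicle and 1095 to 1430 CPM under R1881, ranges that overlapped.

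Stress and signalling lists held few changes. Of interferon genes 2.7% were higher and of lysosome and autophagy genes 3.1%, close to the 2.48% over all genes tested. Of 19 immediate early genes 4 were higher: NR4A1, an orphan nuclear receptor (1.55 ± 0.20), DUSP4, a MAP kinase phosphatase (1.30 ± 0.19), KLF4 (1.76 ± 0.31) and KLF6 (0.99 ± 0.20). NR4A1 went from 8.94, 10.6 and 9.90 CPM to 31.3, 31.4 and 23.2 CPM. Of 20 hypoxia genes NDRG1 and LOX, lysyl oxidase (2.30 ± 0.48), were higher, and CA12, a carbonic anhydrase (-1.02 ± 0.21), and EGLN3, an oxygen sensor (-0.69 ± 0.18), were lower. EGLN3 lost its call without 3 of the 6 libraries taken 1 at a time (adjusted p up to 0.173). Of 25 p53 targets TNFRSF10B, a death receptor, was higher (0.83 ± 0.17), and TP53INP1 (-1.27 ± 0.28) and SESN1 were lower. TP53INP1 was not called without both libraries numbered 2 (adjusted p = 0.100). Of 37 interferon genes B2M, the light chain of MHC class I, was higher (0.99 ± 0.19). Of 16 heat shock genes HSPB8 was lower (-1.59 ± 0.30). Of 32 lysosome and autophagy genes WIPI1 was higher (1.01 ± 0.24), a call lost without 3 of the libraries taken 1 at a time (adjusted p up to 0.0648).

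The luminal markers KRT8, KRT18, CDH1, EPCAM and HOXB13 were present in every library, as the label of the cells calls for. Of 15 luminal markers tested, 4 were higher, among them KLK3, KRT19 (2.03 ± 0.47) and KRT8 (1.09 ± 0.31), and FOLH1, which encodes prostate-specific membrane antigen, was lower. FOLH1 went from 1544, 1506 and 1439 CPM to 926, 836 and 1012 CPM (-0.69 ± 0.16) and lost its call without R1881 library 2 (adjusted p = 0.0690). KRT8 and KRT19 lost theirs without 5 and 2 of the libraries taken 1 at a time (adjusted p up to 0.227 and 0.0791). The summed luminal level was 3587 to 4079 CPM under vehicle and 6512 to 8813 CPM under R1881. In bulk RNA, a different number of cells of a type and a different amount of RNA per cell cannot be told apart. Of 12 basal markers 5 were tested and KRT5 and TP63 had 0 counts in all 6 libraries. KRT14, a basal keratin, was called higher with 1 count under vehicle and 61 under R1881 and lost its call without vehicle library 3 (adjusted p = 0.0549). Of 18 neuroendocrine markers 6 were tested and 0 called, and NEUROD1 and CHGB had 0 counts. Of 15 mesenchymal markers 9 were tested and SNAI2 alone was called, which is also on the androgen-induced list; COL1A2 and DCN had 0 counts. Of 10 immune and endothelial markers 1 was tested, and CD3E, PECAM1 and CDH5 had 0 counts.

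The NLSKD response was then set gene by gene against that of NLS cells, which carry the nuclear form with its kinase intact; the libraries of the lines are not shared. NLS cells had 813 called genes (4.44% of those tested; 2.78% higher and 1.66% lower). Of the 454 genes higher in NLSKD cells 391 (86.1%) were also called higher in NLS cells, and of the 292 lower genes 213 (72.9%) were also called lower. None was called in the opposite direction. The median log2 change of the 454 was 1.46 in NLSKD and 1.44 in NLS cells, and that of the 292 was -1.35 and -1.17, with both sets chosen on the NLSKD values. For KLK2 the changes were 4.84 in NLSKD and 4.44 in NLS cells, for FKBP5 4.17 and 4.18, for ABCA1 -3.54 and -2.90, and for GRB10 -1.36 and -1.44.

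The test of the difference between the NLSKD and NLS responses called 0 of 18296 genes in edgeR, and DESeq2 and limma also called 0. At an unadjusted p under 0.05 there were 147 genes (0.803%). A calibrated test would give a share near 0.05 if no response differed, so this test was conservative here. The shares against WT and EV cells, given below, were also under that. The cause was not tested, and 0 calls do not show that the responses are equal. The median SE of the difference over the 746 genes called in NLSKD cells was 0.377, an interval of 0.738 to either side at 95% before adjustment. For a gene with this SE, a call after adjustment over 18296 genes needs a larger difference. The difference was over 1 in either direction for 75 of the 746 genes, and none of them was called. In simulated data of the same depth this test found 81% of genes made to differ by a log2 value of 2 and 15% of those made to differ by 1. The genes made to differ had a mean of at least 5 CPM in NLSKD cells. Libraries were simulated independently, without shared deviations of same-numbered libraries, so these rates need not hold for all 18296 genes. Across the 11412 genes with at least 5 CPM in 1 of the 4 groups, Pearson's r between both sets of changes was 0.924 and Spearman's rho 0.756, which describes genes and not independent replicates.

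**Figure D4:**
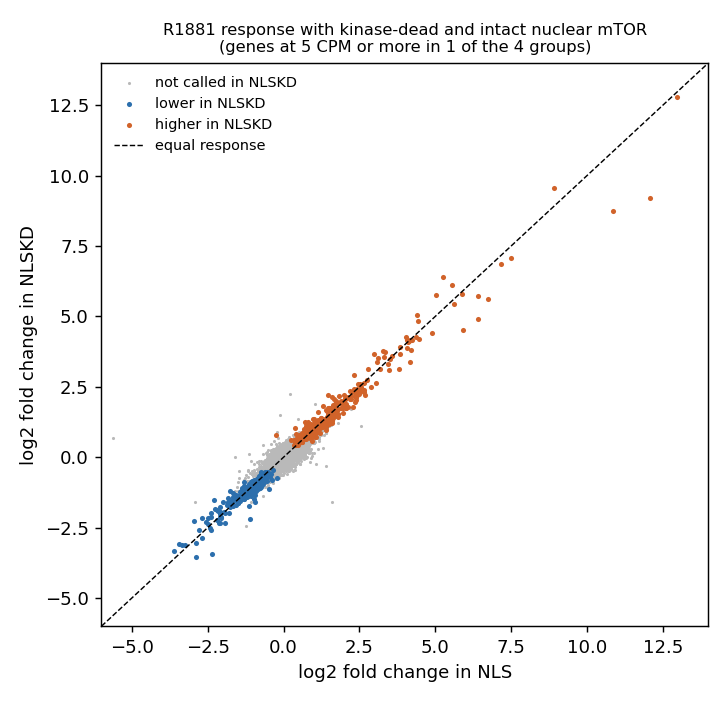
Log2 fold change of R1881 over vehicle in NLSKD cells (vertical axis) against that in NLS cells (horizontal axis), 1 point per gene with at least 5 CPM in 1 of the 4 groups. Orange and blue points are genes called higher and lower in NLSKD cells. They lie along the dashed line of equal response, and the test of the difference called 0 genes.

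Against WT cells the test of the difference also called 0 genes in edgeR, DESeq2 and limma, with 352 genes (1.92%) at an unadjusted p under 0.05. WT cells had 1186 called genes (6.48%; 3.47% higher and 3.01% lower), which included 398 (87.7%) of the genes higher and 241 (82.5%) of those lower in NLSKD cells. NES cells, with 1510 called genes (8.25%; 4.21% higher and 4.04% lower), shared 396 (87.2%) and 244 (83.6%). EV cells had the largest number of calls of the 5 lines, 1666 (9.11%; 4.55% higher and 4.55% lower), and shared 415 (91.4%) and 248 (84.9%). In all 5 lines 339 genes were called higher and 178 lower.

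Against EV cells, which have mTOR knocked down and no rescue, the responses of 3 genes differed, 0.0164% of those tested (2 with a higher value in NLSKD cells, 0.0109%, and 1 with a lower one, 0.00547%). ACKR3, an atypical chemokine receptor also called CXCR7 (chromosome 2, 236567787 to 236582358), went from 206, 192 and 154 CPM to 77.4, 60.2 and 69.1 CPM in NLSKD cells and from 159, 122 and 148 CPM to 11.4, 9.99 and 14.8 CPM in EV cells. The vehicle levels overlapped between the lines and the R1881 levels did not. ACKR3 fell by 1.42 ± 0.25 in NLSKD and by 3.57 ± 0.27 in EV cells, a difference of 2.15 ± 0.35 (edgeR adjusted p = 0.0326). UGT2B17 (chromosome 4, 68537184 to 68568527) went from 236, 115.8 and 160 CPM to 19.6, 20.3 and 19.8 CPM in EV cells, a fall of 3.10 ± 0.28 beside 0.94 ± 0.26 in NLSKD cells. The difference was 2.16 ± 0.37 (adjusted p = 0.0406), and its NLSKD levels lay above the EV levels under both treatments. CRISPLD2, a secreted protein (chromosome 16, 84819984 to 84920768), went from 6.49, 6.22 and 6.91 CPM to 15.2, 8.69 and 9.11 CPM in NLSKD cells (adjusted p = 0.0742) and from 3.73, 4.02 and 4.51 CPM to 34.1, 21.6 and 18.6 CPM in EV cells. Its rise in EV cells was 2.60 ± 0.24 and the difference was -1.85 ± 0.33 (adjusted p = 0.0451). In NLS, WT and NES cells the changes were -1.21, -1.53 and -1.95 for ACKR3 and -0.98, -1.48 and -2.25 for UGT2B17. For CRISPLD2 they were 0.73, 0.40 and 1.46. The NLS and WT values lay nearer to those of NLSKD than of EV cells, so these responses are not shown to be particular to NLSKD.

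The 3 calls depended on which libraries entered the fit. ACKR3 kept its call without EV R1881 library 3, EV vehicle library 2 or NLSKD R1881 library 2 and lost it without any of the others (adjusted p up to 0.223). UGT2B17 kept it without EV vehicle library 2 or NLSKD R1881 library 2 (otherwise up to 0.256), and CRISPLD2 without EV R1881 library 3 or NLSKD R1881 library 1 (otherwise up to 0.256). With the replicate block 18 genes had a larger and 8 a smaller value in NLSKD than in EV cells, and the 3 genes were called in that fit. DESeq2 gave 9 and 4, and limma 44 and 34. At an unadjusted p under 0.05 there were 661 genes (3.61%). KLK2 (4.84 in NLSKD, 3.21 in EV cells) did not pass, with an adjusted p of the difference of 0.150.

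**Figure D5:**
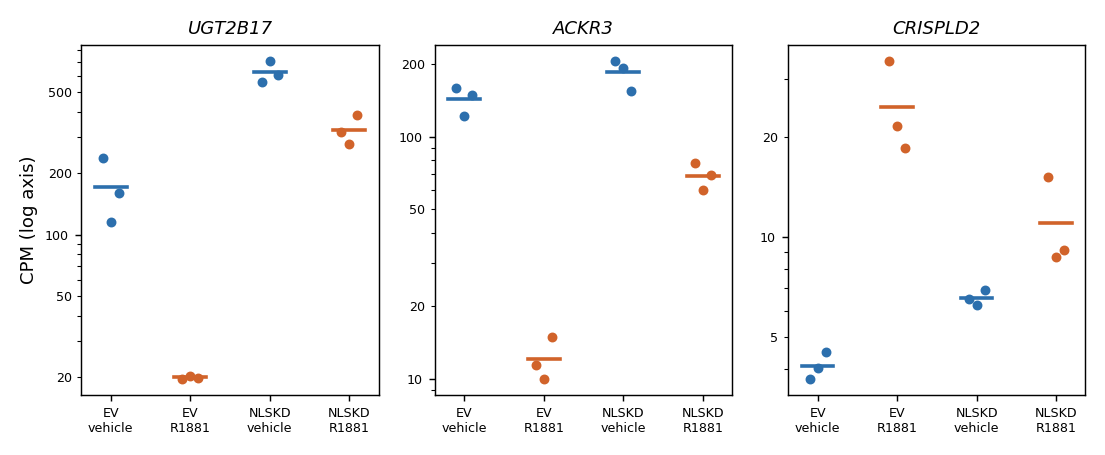
CPM (log axis) of UGT2B17, ACKR3 and CRISPLD2 in each library of EV and NLSKD cells under vehicle and R1881. Points are libraries and short lines are group means; under R1881 UGT2B17 stands at 19.6 to 20.3 CPM in EV and at 280 to 384 CPM in NLSKD cells.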

How the data were processed

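RNA was measured by paired-end sequencing (150 bases) of total RNA. For each of 58735 genes and each library the authors deposited raw counts and FPKM, per the file headers. The submitters' processing notes name HISAT2 2.0.5, featureCounts 1.5.0-p3 and hg38; whether strand was used and how multiply matching reads were handled is not stated there. All gene identifiers were those of GENCODE release 29, and 27 symbols had been turned into dates, so genes were followed by identifier. From the counts, edgeR 4.0.16 in R 4.3.3 (TMM, filterByExpr, glmQLFit, glmQLFTest, two-sided) was fitted once to 30 libraries with 1 mean per group; CPM used the same factors. Differences between responses were interaction contrasts, each adjusted over 18296 genes. In simulated data of this depth the NLSKD test found 57% of genes changed by a log2 value of 1 and 96% of those changed by 2, with 9 false calls among 17963 genes. The changed genes had a mean of at least 5 CPM in NLSKD cells and libraries were simulated independently. These rates therefore need not hold for genes with fewer counts or for libraries that deviate together.

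Libraries of a group differed far beyond counting noise (in every pair, chi-square was at least 34.15 times its degrees of freedom). Within NLSKD cells, libraries with the same number deviated from their group means together (r = 0.210, 0.105 and 0.148 across genes). The submitters' labels give the numbers but do not say that a number marks a shared culture, batch or day. The main fit therefore has no block, and the fit with the replicate number as a block stands beside results it changes. Alternatives were RLE factors, library totals, no or a stricter filter, DESeq2 1.42.0, limma 3.58.1 on log2(FPKM + 1) of the deposited FPKM, the compared groups alone, no mitochondrially encoded genes and each library left out. One was added after seeing the data: leaving out both NLSKD libraries numbered 2.

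Named genes were the 15 highest and 15 lowest changes among called protein-coding genes at 5 CPM or more without overlap, the 8 lowest adjusted p-values per direction, up to 5 called genes of each of 29 lists, 3 long noncoding RNAs per direction, and a fixed set that included MTOR, KLK3, KLK2, FKBP5, TMPRSS2 and SLITRK5. Other genes named as not passing were chosen after their values were seen. Results of some genes are not reported here. The members and lists were chosen with earlier results of these data known. For genes at 0 counts in a group, 3 counts in that whole group served as the floor. Count intervals cover counting error only.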

Additional observations from a re-analysis of the deposited data

Results flagged for a closer look

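The R1881 response of 3 genes differed between NLSKD and EV cells by the interaction test in edgeR. For all 3 the changes in NLS and WT cells, given above, lay nearer to those of NLSKD than of EV cells. For UGT2B17 the response was higher by 2.16 on the log2 scale in NLSKD cells (adjusted p = 0.0406), and the gene fell in all 3 R1881 libraries of both lines. For ACKR3 it was higher by 2.15 (adjusted p = 0.0326), again with a fall in all 3 R1881 libraries of both lines. For CRISPLD2 the difference was -1.85 (adjusted p = 0.0451), and its R1881 libraries lay above the vehicle libraries in both lines. The vehicle level of UGT2B17 was 562 to 714 CPM in NLSKD and 115.8 to 236 CPM in EV cells, so its starting level differed between the lines as well; its part in the result was not tested. EV vehicle libraries overlapped with NLSKD vehicle libraries for ACKR3 (122 to 159 and 154 to 206 CPM).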

How the results depend on the processing

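The counts of genes higher and lower in NLSKD cells were 454 and 292. With the replicate block they were 695 and 494, without both NLSKD libraries numbered 2 the lower count was 152, and leaving out 1 library gave 316 to 420 higher and 198 to 243 lower; the cause was not tested. The block took away the call of CYP11A1 and no other named gene, and it added 6 (IDI1, INSIG1, KLK15, ODC1, SQLE and UGT2B15). DESeq2, limma, RLE factors, library totals, either filter, the NLSKD groups alone and the fit without mitochondrially encoded genes gave 393 to 539 higher and 218 to 437 lower. No named gene reversed. Of the named genes that were called, 86 kept their call without any 1 of the 6 NLSKD libraries and 30 lost it in at least 1 such fit. The difference to EV cells, 2 genes higher and 1 lower, came to 9 and 4 with DESeq2, 44 and 34 with limma, 19 and 8 without a low-count filter, 18 and 8 with the block, 1 and 0 with the compared groups alone, 2 and 0 with library totals, 0 and 0 without mitochondrially encoded genes or without both NLSKD libraries numbered 2, and 0 to 2 and 0 to 1 when 1 library was left out. The differences to NLS and WT cells called 0 genes in all of these settings except without a low-count filter, which called 2 higher and 2 lower against NLS and 6 higher and 4 lower against WT. Scaling moved the median log2 change of all genes by at most 0.0801, with library totals. In the simulated data, with 3 libraries per group, changes of a log2 value of 1 were often missed, above all in differences between lines.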

Other observations

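Of the genes called in NLSKD cells, 8 higher and 17 lower genes were called in none of the other lines. None of them passed the test of the difference to NLS, EV or WT cells, so they are not shown to be particular to NLSKD. They were named after their values were seen. Among them MYNN, a zinc finger gene, and ACTRT3, an actin-related gene, neighbour each other on opposite strands of chromosome 3. MYNN went from 35.1, 61.7 and 82.7 CPM to 26.3, 21.4 and 34.0 CPM (-1.14 ± 0.26, edgeR adjusted p = 0.00696), and ACTRT3 from 3.96, 3.67 and 11.0 CPM to 1.66, 1.30 and 2.64 CPM (-1.73 ± 0.45, adjusted p = 0.0212). Neither had overlapping groups, and vehicle library 3 was the highest for both. Without that library neither was called (adjusted p = 0.0777 for MYNN and 0.311 for ACTRT3). Without R1881 library 2 neither was called, and ACTRT3 also lost its call without R1881 library 1. KCND2, a potassium channel gene, rose from 1.17, 1.07 and 1.78 CPM to 5.59, 3.31 and 9.76 CPM (2.21 ± 0.49) and lost its call without R1881 library 3 (adjusted p = 0.0660). DNAJB5, a heat shock cofactor, is one of the few called genes whose groups overlapped, at 3.16 to 6.80 CPM under vehicle and 6.34 to 11.5 CPM under R1881. It lost its call without R1881 library 1, vehicle library 2 or vehicle library 3 (adjusted p up to 0.0996) and without both libraries numbered 2 (adjusted p = 0.255).

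The response of ABCG1 was -1.26 in NLSKD, -1.15 in NLS and -1.38 in WT cells and -0.10 in EV cells. In NES cells it was -0.72 and did not pass (adjusted p = 0.0542). The difference between NLSKD and EV cells was -1.15 ± 0.32 and did not pass over all genes (unadjusted p = 0.00146, adjusted p = 0.485).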
